A study of Mus musculus with 8 samples.

Results

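Messenger RNA was examined for the nuclear-encoded subunits of the oxidative phosphorylation (OXPHOS) complexes in mouse embryonic stem cells (ESCs) with and without Dax1. The members were the protein-coding genes whose symbols begin with Ndufa, Ndufb, Ndufc, Ndufs or Ndufv and a digit, with Uqcr, with Cox4 to Cox8 or with Atp5, together with Sdha, Sdhb, Sdhc, Sdhd and Cyc1. This rule uses names only and found 85 of the 52550 genes listed, with 37 in complex I, 4 in complex II, 9 in complex III, 18 in complex IV and 17 in complex V. Control ESCs and Dax1-knockout (Dax1KO) ESCs, at passage 3 on gelatin, were each grown in both 2i/LIF and LIF/serum, which gave 4 groups of 2 libraries. All media held LIF at 10 ng/ml. 2i/LIF was N2B27 medium with the MEK inhibitor PD0325901 at 1 µM and the GSK3 inhibitor CHIR99021 at 3 µM, and LIF/serum was DMEM with 15% fetal bovine serum. The knockout came from a lentivirus carrying Cas9, a guide against Dax1 and a zeocin marker, and resistant colonies were picked and expanded in 2i/LIF, so the Dax1KO cells descend from picked colonies and the knockout cannot be told apart from other differences between the lines. Nothing in the sources used here says that the libraries of a group came from separate cultures, so P values measure only the spread between these libraries.

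Complex I (NADH dehydrogenase) and complex II (succinate dehydrogenase) pass electrons to ubiquinone, complex III (cytochrome bc1) passes them on to cytochrome c, and complex IV (cytochrome c oxidase) reduces oxygen. The proton gradient built by complexes I, III and IV drives complex V, the ATP synthase. The subunits are encoded mostly in the nucleus, and several subunits of complex IV exist as a ubiquitous form and a form restricted to muscle, lung or testis. ESCs in 2i/LIF are known to rely more on respiration than primed pluripotent cells, which depend largely on glycolysis. The members also include Atp5s, which carries the symbol but is not a core ATP synthase subunit, and Ndufa4, whose protein is now counted with complex IV; both were kept where the rule puts them.

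Total counts lay between 35911384 and 37286251, and the members took 1.05% to 1.29% of them. The files listed the 37 mitochondrially encoded genes, 13 of them protein coding, at 0 in all 8 libraries, so these subunits are not described. Dax1 itself (Nr0b1) had normalized counts of 457 and 300 in control and 0 and 0 in Dax1KO cells in 2i/LIF, and of 5402 and 5001 against 13.4 and 5.85 in LIF/serum. The 9 ESC markers examined were present in all groups, with summed normalized counts of 212617 to 264825. Single markers still differed between media. In control cells 3 were higher and 6 lower in 2i/LIF, with log2 differences from -1.19 to 1.39. The summed normalized counts of 6 primitive endoderm markers (Gata6, Gata4, Sox17, Sox7, Dab2 and Foxa2) were 878 to 948 in control and 948 to 1276 in Dax1KO cells in 2i/LIF, and 3621 to 5083 in control and 11599 to 13508 in Dax1KO cells in LIF/serum. In 2i/LIF 3 of the 6 had log2 differences above 0 and 3 below, from -1.13 to 1.28. All 6 lay above 0 in LIF/serum. In bulk libraries fewer cells of a type and less RNA per cell cannot be told apart.

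The 2 control libraries in LIF/serum stood apart from each other. Replicate 2 exceeded replicate 1 in 77 of the 84 members that passed the filter on low counts, with a median log2 difference of 0.39. Between the Dax1KO libraries in LIF/serum replicate 2 was higher in 72 of 84 members by a median of 0.19, while in 2i/LIF the medians were 0.05 in control and -0.05 in Dax1KO cells. Among protein-coding genes with at least 200 counts in each library, the difference between the LIF/serum controls depended on annotated exon length, from a median of 0.50 for 78 genes under 800 bases to -0.12 for 7037 genes over 3000 bases. The members are mostly short, with a median exon length of 1550 bases, and their own median difference fell from 0.50 in the shortest class to 0.16 in the longest. From 1500 to 3000 bases their median was 0.37 against 0.12 for all such genes, so members exceeded genes of like length. In Dax1KO cells in LIF/serum the members had medians of 0.17 to 0.19 in each class, while all such genes fell from 0.17 to -0.05. A fit with the trend over exon length removed from each library, added after the data were seen, is given beside the counts of DEGs that it changed. The counts of DEGs that rest on these libraries are also given with each library left out.

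**Figure D1:**
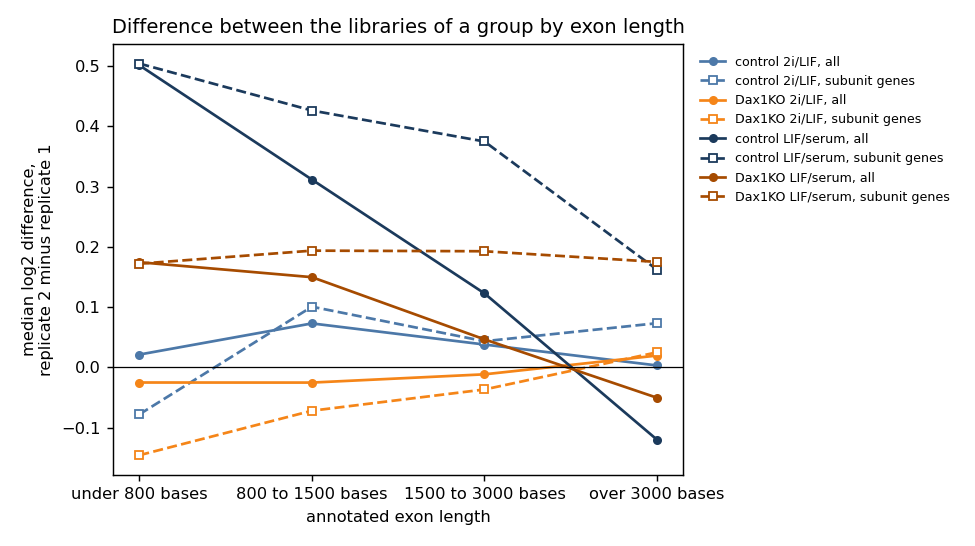
Median log2 difference between replicate 2 and replicate 1 (vertical axis) in 4 classes of exon length (horizontal axis) for each group, with solid lines for all well-covered protein-coding genes and dashed lines for subunit genes. The LIF/serum control falls from 0.50 to -0.12 for all such genes, whereas both 2i/LIF groups stay near 0.

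The promoters of 6 DEGs are shown, with and without matches of 4 short motifs known from genes of the respiratory chain. Promoter sequences, 250 bases before to 50 bases after each start, came from RefSeq on GRCm38.p6 and were matched by symbol for 66 of the 85 members. Of these 66 genes, 8 (12.1%) held GCGCATGCG, the core of the NRF1 motif, against 1.95% of 27025 genes with a promoter. The ETS motif CCGGAAG was found in 16 (24.2%) against 9.93%, the YY1 motif AAGATGGCG in 7 (10.6%) against 1.64%, and the binding element of estrogen-related receptors, TCAAGGTCA, in 2 (3.03%) against 0.466%. Both strands were searched, and the motifs were counted separately where they overlap. At least 1 of the 4 was held by 27 of the 66 genes. The median member promoter held 19 CG dinucleotides and the median of all genes held 8, and these shares were not corrected for this. Of the 15 DEGs described below that had a promoter, 10 held none of the 4, Cox7b2 and Cox7a1 among them. Of the other 5, Atp5g2 held the NRF1 core, Atp5l held it and the ETS motif, and Uqcrh, Ndufb7 and Ndufs8 held the ETS motif. The sequences of 6 of the 15 follow, 5′ to 3′, with motif matches in capitals, where the capitals in Atp5g2 join overlapping matches of the NRF1 core on both strands and the run in Ndufb7 is on the strand shown. The 3 runs in Atp5l and the run in Uqcrh are matches on the opposite strand.
Atp5g2, chr15:102670998-102671297, minus strand: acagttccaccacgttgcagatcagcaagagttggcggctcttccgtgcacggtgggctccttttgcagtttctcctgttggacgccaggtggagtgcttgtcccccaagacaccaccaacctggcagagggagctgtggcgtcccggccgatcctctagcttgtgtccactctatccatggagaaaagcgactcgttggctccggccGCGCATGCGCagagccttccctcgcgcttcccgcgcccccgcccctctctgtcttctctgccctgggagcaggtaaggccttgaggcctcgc
Atp5l, chr9:44920693-44920992, minus strand: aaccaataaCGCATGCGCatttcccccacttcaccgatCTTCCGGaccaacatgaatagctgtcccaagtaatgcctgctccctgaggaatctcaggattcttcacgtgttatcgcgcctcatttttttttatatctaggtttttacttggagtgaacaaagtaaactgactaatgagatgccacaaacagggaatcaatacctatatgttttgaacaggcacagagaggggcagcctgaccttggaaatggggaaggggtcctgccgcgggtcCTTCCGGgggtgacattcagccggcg
Uqcrh, chr4:116075021-116075320, minus strand: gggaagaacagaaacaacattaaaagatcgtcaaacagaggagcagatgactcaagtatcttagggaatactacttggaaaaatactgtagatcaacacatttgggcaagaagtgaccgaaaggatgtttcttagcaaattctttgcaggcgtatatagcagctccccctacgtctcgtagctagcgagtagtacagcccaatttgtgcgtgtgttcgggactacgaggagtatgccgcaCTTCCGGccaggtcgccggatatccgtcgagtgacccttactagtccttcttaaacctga
Ndufb7, chr8:83566508-83566807, plus strand: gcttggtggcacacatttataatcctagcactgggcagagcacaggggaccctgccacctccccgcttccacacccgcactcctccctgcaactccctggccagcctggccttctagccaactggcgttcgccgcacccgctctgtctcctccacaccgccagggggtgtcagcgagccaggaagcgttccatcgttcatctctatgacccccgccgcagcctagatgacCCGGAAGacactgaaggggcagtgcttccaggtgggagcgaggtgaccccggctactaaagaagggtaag
Cox7b2, chr5:71548156-71548455, minus strand: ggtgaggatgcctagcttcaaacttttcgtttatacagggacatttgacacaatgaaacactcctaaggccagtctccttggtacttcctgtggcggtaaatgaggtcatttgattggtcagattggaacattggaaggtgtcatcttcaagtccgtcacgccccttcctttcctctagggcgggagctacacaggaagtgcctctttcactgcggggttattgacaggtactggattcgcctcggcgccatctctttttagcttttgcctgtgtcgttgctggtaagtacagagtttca
Cox7a1, chr7:30183921-30184220, plus strand: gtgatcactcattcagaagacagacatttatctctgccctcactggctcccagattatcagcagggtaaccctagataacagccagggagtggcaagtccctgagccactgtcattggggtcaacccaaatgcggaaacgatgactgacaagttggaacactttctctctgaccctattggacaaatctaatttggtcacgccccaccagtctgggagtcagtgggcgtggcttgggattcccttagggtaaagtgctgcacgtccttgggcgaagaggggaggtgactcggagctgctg
A match is a description of letters in these windows and shows no binding.

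Of the 85 members, 84 passed the filter on low counts, which kept 20749 genes, and the muscle isoform Cox8b was at 0 in all libraries. Levels are given as CPM (counts scaled to library size) per kilobase of annotated exon, so genes can be compared, and a gene with long minor exons gets a low level on this scale. The median level over the 8 libraries was 44.1 in complex I, 49.3 in complex II, 86.4 in complex III, 120 in complex IV and 83.3 in complex V. The highest member of all was Cox8a, the ubiquitous form of a small complex IV subunit, at 583. Atp5b, the catalytic beta subunit of the ATP synthase, led complex V at 406, Uqcrb led complex III at 196, Ndufb9 led complex I at 113, and the membrane anchor Sdhd led complex II at 88.6. The lowest tested members were the complex IV isoform genes Cox6a2 at 1.02, Cox8c at 1.72 and Cox4i2 at 3.44. The lowest of complex V was Atp5s at 3.67, of complex I Ndufb2 at 5.69, of complex II Sdhc at 40.3 and of complex III Uqcrh at 56.2. Ndufb2 overlaps exons of Braf and of 2 unnamed genes, and no source used here says whether reads were counted by strand.

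**Figure D2:**
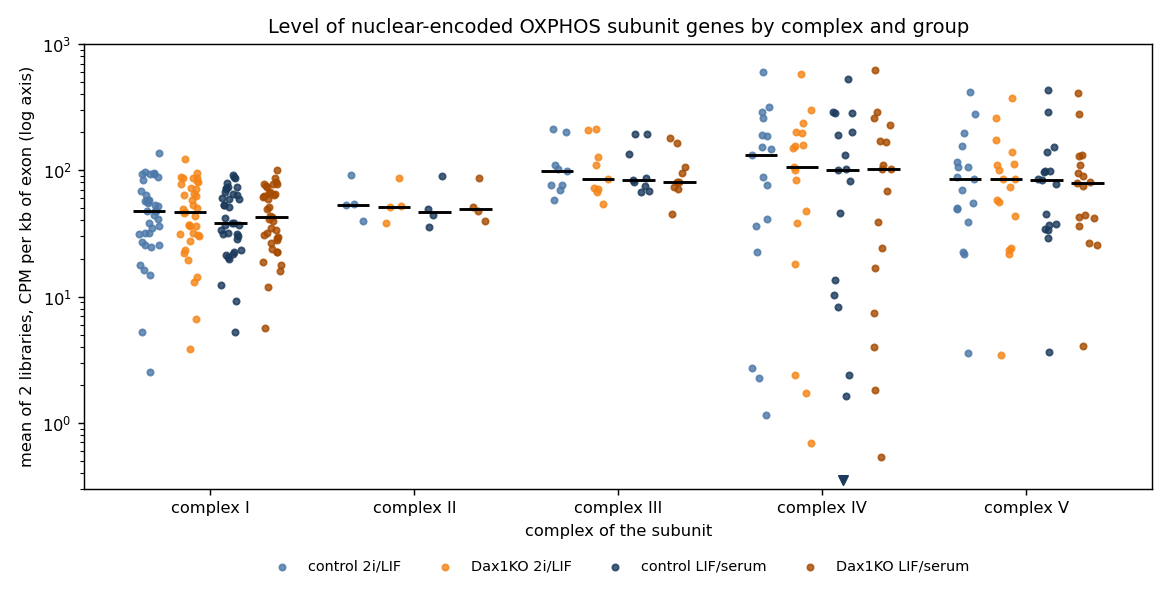
Level of each subunit gene (mean of 2 libraries, CPM per kb of exon, log axis) by complex, with a column of points per group, black bars at the medians and a triangle for Cox6a2, at 0 in the LIF/serum control. Complex IV has the widest range, from Cox6a2, with means of 0 to 2.40, up to Cox8a, with means of 532 to 627.

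The total over the members barely separated the groups. Summed normalized counts were 466639 and 479354 in control and 460365 and 441799 in Dax1KO cells in 2i/LIF, and 398832 and 487644 in control and 405430 and 454396 in Dax1KO cells in LIF/serum. The control libraries in LIF/serum therefore held both the lowest and the highest total, and groups overlapped between media and between genotypes in LIF/serum. In 2i/LIF both Dax1KO totals lay below both control totals, and the same held for the sums of complex V. Complex V contributed the most, from 173626 to 201470, and complex II the least, from 18421 to 22692.

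The first question was whether the loss of Dax1 changed OXPHOS genes in 2i/LIF, where Dax1 is low. In 2i/LIF no member was a DEG, defined as a gene with an adjusted P of at most 0.05 in edgeR's quasi-likelihood test and a fold change of at least 1.2. This compares with 3.16% of all genes tested. With the trend over exon length removed Ndufa4 and Ndufa9 were DEGs, beside 4.21% of all genes, and a fit of these 4 libraries alone called Ndufa4, beside 2.76%. The median log2 fold change (Dax1KO against control) was -0.06 over the members and -0.01 over all genes, 71 of 84 members changed less than 1.2 fold, and the complexes had medians between -0.07 and -0.04. With the length trend removed the members' median was -0.035. The median standard error was 0.17 on the log2 scale, and the absence of a call does not show that a member did not change. In 17 members both Dax1KO libraries lay above both control libraries, in 30 they lay below and in 37 they overlapped. Over all genes tested 25.0% lay above, 26.8% below and 48.2% overlapped.

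In 2i/LIF 4 members had an unadjusted P under 0.05, Ndufa4, Ndufa9, Atp5j and Cox6b1, while 17.9% of all genes did. DESeq2 called 3 of the 4, with Ndufa4 and Ndufa9 upregulated and Atp5j downregulated, and called 7.01% of all genes. Ndufa4, a small subunit now placed in complex IV, had normalized counts of 2833 and 3007 in control and 4278 and 4564 in Dax1KO cells, a log2 difference of 0.60 ± 0.16 (SE) with an adjusted P of 0.0846 in edgeR. Ndufa9, an accessory subunit of complex I, had 3609 and 3675 against 5146 and 4803, with 0.45 ± 0.13 and an adjusted P of 0.106. In both genes the Dax1KO libraries lay above the control libraries without overlap. Atp5j, which encodes a coupling subunit of the ATP synthase and was chosen after its values were seen, had 5147 and 3814 against 2115 and 3278, with -0.73 ± 0.24 and an adjusted P of 0.153. Here too the groups were separate, but the libraries within each group were far apart. The exons of Atp5j overlap Gabpa on the opposite strand, which had a mean count of 8586 against 3669 for Atp5j.

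Ndufa4 and Ndufa9 lie on chromosome 6, as do Ndufa5 and Ndufb2. All 4 had values above 0 in 2i/LIF, with a median log2 difference of 0.39, beside 0.44 for all 1054 tested genes of chromosome 6 and -0.07 for the 80 tested members elsewhere. Ndufa5 had 1196 and 1190 in control and 1484 and 1282 in Dax1KO cells (0.21 ± 0.19), and Ndufb2 had 1050 and 1118 against 1317 and 1406 (0.33 ± 0.19). In LIF/serum the median of the 4 was 0.19 beside 0.52 for the chromosome. There Ndufa9 had 3669 and 4530 in control and 5052 and 5363 in Dax1KO cells (0.35 ± 0.13, adjusted P 0.107 in edgeR) and Ndufa4 had 3324 and 4085 against 3876 and 4980 (0.26 ± 0.15). Ndufb2 had 0.12 ± 0.19 and Ndufa5 -0.09 ± 0.19, and the libraries overlapped for Ndufa4, Ndufa5 and Ndufb2. Of the 1054 genes of chromosome 6, 833 lay above 0 in 2i/LIF and 809 in LIF/serum, and 10.5% and 29.9% were DEGs. The part of this shift in the values of these 4 genes was not tested.

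In LIF/serum, where Dax1 is abundant in control cells, 5 of 84 members were DEGs in Dax1KO cells, or 5.95% against 14.7% of all genes tested. A fit of these 4 libraries alone called none of the members and 9.08% of all genes. The complex IV isoform genes Cox4i2 and Cox6a2 were upregulated, as were 8.87% of all genes. Cox7b2 (complex IV), Uqcrh (complex III) and Ndufs1 (complex I) were downregulated, as were 5.78% of all genes, and no member of complex II or V was a DEG. The median log2 difference over the members was -0.04 beside 0.01 over all genes, and 62 of 84 changed less than 1.2 fold. By complex the median ran from -0.09 in complex III to 0.0012 in complex IV. In 64 members the libraries of the groups overlapped, 11 were higher in both Dax1KO libraries and 9 lower. Over all genes 42.5% overlapped, 30.3% were higher and 27.3% lower.

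Cox4i2, the lung isoform of a core regulatory subunit that is induced at low oxygen in other cells, had normalized counts of 50.9 and 88.5 in control and 143 and 284 in Dax1KO cells, and rose by 1.61 ± 0.42 on the log2 scale (adjusted P 0.0387, edgeR). Its ubiquitous partner Cox4i1 had 9678 and 13058 against 9226 and 9976 (-0.24 ± 0.14, adjusted P 0.296). Cox4i2 thus took 1.17% of the summed level of the pair in control and 4.12% in Dax1KO cells. Cox6a2, the muscle isoform, had 0 counts in each control library and 18.2 and 8.78 in Dax1KO cells, at least 4.49-fold higher when the control is set at 3 counts per library, with an adjusted P of 0.0283. Its exons overlap Itgad on the opposite strand, and its partner Cox6a1 stood at 5987 and 8786 against 7243 and 7716.

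Cox7b2, the testis form of Cox7b, had 147 and 182 normalized counts in control and 59.3 and 99.5 in Dax1KO cells in LIF/serum, and fell by 1.05 ± 0.28 on the log2 scale (-1.05, adjusted P 0.0424, edgeR). The groups did not overlap. Its call was kept in 5 and lost in 8 of the 13 other settings in which it was tested, with adjusted P up to 0.178, and it was lost with each of the 4 libraries left out. Uqcrh, the hinge protein of complex III, had 2717 and 3450 against 2051 and 2037 (-0.59 ± 0.14, adjusted P 0.0267). Ndufs1, the largest iron-sulfur subunit of complex I, had 6715 and 6680 against 4806 and 4616 (-0.51 ± 0.10, adjusted P 0.0164). Its libraries were close within groups, and its annotated exons, 8086 bases in all, overlap Eef1b2 and Ino80dos on the opposite strand.

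Cox7a1, the heart and skeletal muscle isoform, had 134 and 268 normalized counts in control and 325 and 634 in Dax1KO cells in LIF/serum (1.26 ± 0.38, adjusted P 0.0647 in edgeR), and DESeq2 called it. Ndufa4l2, a hypoxia-responsive relative of Ndufa4, ranged more within groups than between them, from 76.3 to 671 in control and from 487 to 2295 in Dax1KO cells (1.90 ± 1.13, adjusted P 0.299). The testis isoforms Cox6b2 and Cox8c did not pass the test, with 443 and 653 against 652 and 714 for Cox6b2 and 33.9 and 21.3 against 25.8 and 35.1 for Cox8c. The summed normalized counts of 6 muscle markers (Myh6, Myh7, Actc1, Ckm, Tnnt2 and Myog) were 314 to 316 in control and 176 to 210 in Dax1KO cells in LIF/serum, with Actc1 at 0 in the latter, and 1 of the 4 tested was a DEG (Myh6, lower in Dax1KO cells). The summed counts of 6 fibroblast markers (Col1a1, Col1a2, Thy1, Twist2, Pdgfrb and Lum) were 584 to 629 in control and 1875 to 1988 in Dax1KO cells in LIF/serum, with Lum at 0 in both and 3 of the 5 tested upregulated. In 2i/LIF they were 2006 to 2453 in control and 1703 to 1731 in Dax1KO cells. The sum hides opposite changes there, since 4 of the 5 tested lay above 0 and 1 below. Of the 5, 1 was upregulated and 1 downregulated, while 3.16% of all genes were DEGs. Primitive endoderm markers were also higher in the Dax1KO libraries in LIF/serum. The neural markers Sox1, Pax6 and Tubb3 summed to 4983 to 5514 in control and 3983 to 4932 in Dax1KO cells in LIF/serum, with values below 0 for all 3 and Pax6 downregulated (-2.30), and to 2294 to 2353 and 1525 to 1716 in 2i/LIF. The part of these markers in the isoform values was not tested.

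The calls in LIF/serum changed with the library left out, while none of the 5 genes changed direction. Ndufs1 stayed between -0.56 and -0.41 in all settings tried and was a DEG without either control replicate, and Uqcrh ran from -0.76 to -0.42. Cox4i2 ran from 1.03 to 2.05 and Cox7b2 from -1.47 to -0.73. Without control replicate 1 there were 9 DEGs, all downregulated, with a median of -0.20, and 2 of the 9 were among the 5 called with all libraries. Without control replicate 2 there were 4 upregulated and 1 downregulated, with a median of 0.16, and 1 of them was among those 5. Without Dax1KO replicate 1 the 2 DEGs were upregulated (Cox4i2 and Cox7a1), and without Dax1KO replicate 2 there were none. Over all genes the same fits called 9.30% and 7.73% without control replicates 1 and 2, and 6.62% and 3.33% without Dax1KO replicates 1 and 2. Scaling by total counts in place of TMM gave 3 upregulated and 2 downregulated members, with Cox7b2 lost and Cox7a1 gained, beside 15.8% of all genes, and turned the members' median to 0.06, while the median of all genes moved from 0.01 to 0.10. With no filter on low counts Ndufs1 was the 1 DEG, beside 5.74% of all genes. With the trend over exon length removed the 5 genes stayed DEGs, Cox7a1 and Ndufa9 joined them, and the members' median turned to 0.02, beside 17.1% of all genes called.

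**Figure D3:**
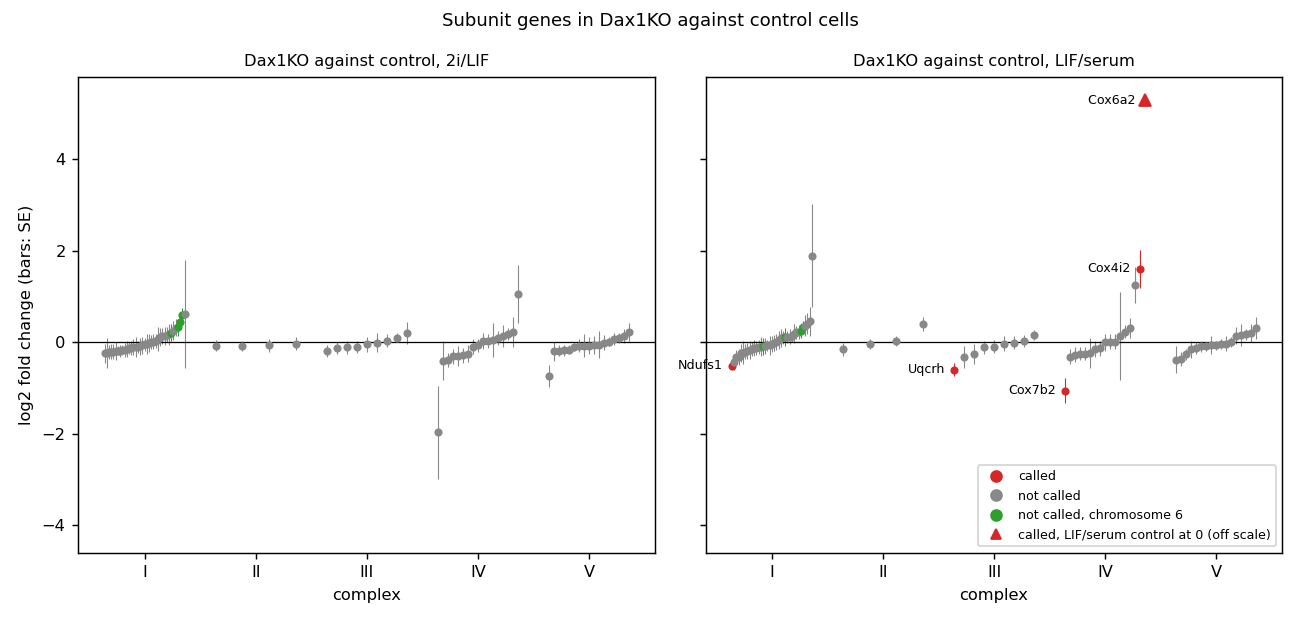
Log2 fold change of each tested subunit gene in Dax1KO against control cells (points, bars: SE) by complex, in 2i/LIF at left and LIF/serum at right, with DEGs in red and chromosome 6 members that are not DEGs in green. Within 0.5 of 0 lie 79 of 84 members in 2i/LIF and 77 in LIF/serum, and the 5 DEGs are all in LIF/serum, where Cox6a2 is drawn off scale because its control is at 0.

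The difference between these effects was tested directly, as the effect in LIF/serum minus that in 2i/LIF. In edgeR no member passed an adjusted P of 0.05, against 2.87% of all genes, and 5 had an unadjusted P under 0.05 (Cox4i2, Atp5j, Cox7b2, Cox6a2 and Uqcrh), beside 19.1% of all genes. The lowest adjusted P was 0.120, for Cox4i2, whose log2 difference of effects was 2.01 ± 0.59. It had 60.2 and 71.0 in control and 58.4 and 41.1 in Dax1KO cells in 2i/LIF, so in that medium the libraries were lower in Dax1KO cells. DESeq2 called Cox7b2 (-1.20 ± 0.37 and adjusted P 0.137 in edgeR) and Atp5j (1.05 ± 0.33 and 0.143), and called 7.28% of all genes. The median over members was -0.01, and it was -0.18 without LIF/serum control replicate 1 and 0.20 without replicate 2. With the length trend removed it was 0.04, beside 0.03 over all genes. DEGs in one medium alone therefore do not show that the effect of Dax1KO on these genes differed between media.

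The second question was how the members differed between media. In control cells 13 of 84 members were DEGs between 2i/LIF and LIF/serum, or 15.5% against 36.8% of all genes. Of the 13, 11 were higher in 2i/LIF, where 20.3% of all genes were, and 2 were lower, where 16.5% were. Complex IV held 6 of those higher and complex I held 5, while the 2 lower ones were Ndufs1 of complex I and Atp5l of complex V. No member of complex II or III was a DEG. A fit of these 4 libraries alone called 7 members and 33.0% of all genes. With the trend over exon length removed 21 members, Cyc1 of complex III among them, were higher and 3 lower, beside 39.0% of all genes, and the members' median was 0.18. Without that correction the median log2 difference was 0.11 over the members, 0.01 over all genes, and between 0.07 in complex III and 0.16 in complex IV. In 31 members both 2i/LIF libraries lay above both LIF/serum libraries, in 9 they lay below and in 44 they overlapped. Over all genes 35.4% lay above, 33.2% below and 31.4% overlapped.

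Cox7b2 showed the clearest difference. It had normalized counts of 1771 and 1278 in 2i/LIF and 147 and 182 in LIF/serum in control cells, a log2 difference of 3.21 ± 0.28 (adjusted P 0.000128, edgeR). In Dax1KO cells it had 1811 and 1552 against 59.3 and 99.5, a difference of 4.40 ± 0.30 (adjusted P 5.64e-05). Both genotypes thus had high levels in 2i/LIF and low levels in LIF/serum, with no overlap. Cox7b, encoded on the X chromosome, did not pass the test (-0.32 ± 0.18 in control and -0.14 ± 0.18 in Dax1KO cells), and Cox7b2 made up 33.2% ± 3.0 (SD, n = 2) of the pair's level in control and 35.2% ± 0.24 in Dax1KO cells in 2i/LIF, against 4.22% ± 0.42 and 2.24% ± 0.60 in LIF/serum. No other annotated gene matched the longest Cox7b2 transcript at 95% identity.

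Cox7a1 had 636 and 796 in 2i/LIF and 134 and 268 in LIF/serum in control cells, a difference of 1.83 ± 0.39 (adjusted P 0.00764, edgeR). In Dax1KO cells it had 729 and 761 against 325 and 634, a difference of 0.64 ± 0.37 (adjusted P 0.245) that did not pass the test, and the difference between genotypes had an adjusted P of 0.271. Its partner Cox7a2 had 4577 and 4584 against 3835 and 5329 in control cells. Cox7a1 made up 21.6% of the pair in control and 26.2% in Dax1KO cells in 2i/LIF, and 6.97% and 17.8% in LIF/serum. Cox6a2 was at 34.1 and 23.0 in 2i/LIF and at 0 in LIF/serum in control cells, at least 9.52-fold higher with LIF/serum set at 3 counts per library (adjusted P 0.00466). Muscle markers summed to 184 to 188 in control cells in 2i/LIF, with Actc1 at 0, and to 314 to 316 in LIF/serum, where Myh6 was higher (-1.83) and Tnnt2 was lower (1.99, from 30.1 and 55.0 to 9.54 and 11.7). Fibroblast markers, given above, were higher in 2i/LIF in sum, with 3 of 5 higher and 1 lower in the test. All 6 primitive endoderm markers were lower DEGs in 2i/LIF in both genotypes (medians -2.23 in control and -3.72 in Dax1KO cells), beside 16.5% and 13.7% of all genes. In Dax1KO cells the neural, muscle and fibroblast lists each had 1 marker higher and 1 lower in the test. The part of these lists in the isoform values was not tested.

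Other DEGs of control cells differed by smaller amounts. Cox5a, a core nuclear subunit of complex IV, had 13510 and 15205 in 2i/LIF and 6259 and 9443 in LIF/serum (0.87 ± 0.19, adjusted P 0.00799, edgeR). Ndufb4, an accessory subunit in the membrane arm of complex I, had 5459 and 6420 against 3269 and 3894 (0.73 ± 0.15, adjusted P 0.0077). Cox6b2, the testis isoform of Cox6b1, had 853 and 964 against 443 and 653 (0.73 ± 0.22, adjusted P 0.0324). Cox7a2l, a relative of Cox7a2 that helps to join complexes III and IV, had 7481 and 8386 against 4779 and 6199 (0.53 ± 0.16, adjusted P 0.0307). The 4 remaining genes higher in 2i/LIF, named after their values were seen, were Ndufb9 (0.57), Ndufs8 (0.52), Ndufa12 (0.50) and Ndufv2 (0.41). None of these 8 genes had overlapping libraries. In the opposite direction Ndufs1 had 4250 and 4624 in 2i/LIF and 6715 and 6680 in LIF/serum (-0.59 ± 0.10, adjusted P 0.00281), and Atp5l, which encodes subunit g of the ATP synthase, had 5218 and 5112 against 6722 and 9377 (-0.64 ± 0.16, adjusted P 0.0149). Atp5l resembles 9 other annotated genes over most of its longest transcript, and those genes held 8.63% of its own count.

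Without LIF/serum control replicate 1 the control comparison gave 5 members higher and 6 lower with a median of -0.05, and without replicate 2 it gave 21 higher and 2 lower with a median of 0.30. The same fits called 29.0% and 27.7% of all genes. Without 2i/LIF control replicate 2 only Cox6a2, Cox7a1 and Cox7b2 (higher) and Ndufs1 (lower) were DEGs, beside 23.1% of all genes, and these 4 stayed DEGs in each setting in which they were tested, other than the stricter fold threshold of 2 for Ndufs1.

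In Dax1KO cells 9 of 84 members were DEGs between media, or 10.7% against 28.9% of all genes, with 8 higher in 2i/LIF (15.2% of all genes) and 1 lower (13.7%). A fit of these 4 libraries alone called 16 members and 32.7% of all genes, with the length trend removed 19 and 30.8% were called, and with no filter on low counts 5 and 14.5%. Next to Cox7b2 the higher ones were Ndufb7 (4978 and 5147 against 2721 and 3157, 0.78 ± 0.20), Ndufa12 (3052 and 3074 against 1740 and 2114, 0.67 ± 0.16), Cox5a (12189 and 12064 against 7330 and 8385, 0.63 ± 0.19), Cox5b (6174 and 5613 against 3961 and 4064, 0.55 ± 0.14) and Cox7a2l (8149 and 8069 against 4971 and 6136, 0.55 ± 0.16). Their adjusted P in edgeR lay between 0.016 and 0.0373. Ndufb7 and Ndufa12 encode accessory subunits of complex I, and Cox5b encodes a zinc-binding subunit of complex IV. In all of these the 2i/LIF libraries lay above the LIF/serum libraries. Cox4i2 was the DEG in the opposite direction, with 58.4 and 41.1 in 2i/LIF and 143 and 284 in LIF/serum (-2.10 ± 0.42, adjusted P 0.0082), while in control cells it had 60.2 and 71.0 against 50.9 and 88.5 (-0.09 ± 0.42). Ndufa4l2 had a larger difference and did not pass the test in edgeR. In Dax1KO cells it had 106 and 205 in 2i/LIF and 487 and 2295 in LIF/serum, without overlap (-3.16 ± 1.2, adjusted P 0.0858). In control cells it had 22.1 and 180 against 76.3 and 671, and the libraries overlapped (-1.88 ± 1.18, adjusted P 0.249).

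The genes Atp5g1, Atp5g2 and Atp5g3 encode the same mature c subunit of the ATP synthase rotor with different leader peptides. In Dax1KO cells Atp5g1 had 9758 and 10413 in 2i/LIF and 7957 and 7995 in LIF/serum (0.34 ± 0.10, adjusted P 0.0371, edgeR), and Atp5g2 had 10512 and 10745 against 7397 and 8458 (0.42 ± 0.13, adjusted P 0.0377). Atp5g3 had 8650 and 9138 against 6073 and 6941 (0.45 ± 0.20, adjusted P 0.125). In control cells the log2 differences of the 3 genes were 0.29, 0.35 and 0.45, with adjusted P of 0.0539, 0.0623 and 0.105. The Dax1KO and control values were side by side above 0 in each gene, and none of the 3 differed between genotypes in the direct test, with adjusted P from 0.884 to 1.00.

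The comparisons of media in control and in Dax1KO cells share no library. They had the same sign in 73 of 84 members, 47 higher and 26 lower in 2i/LIF in both, beside 75.4% of all genes with the same sign. Cox7b2, Cox5a, Cox7a2l and Ndufa12 were DEGs in both, which is 30.8% of the 13 in control cells and 44.4% of the 9 in Dax1KO cells. Over all genes the DEGs shared in 1 direction were 55.5% of those in control and 70.6% of those in Dax1KO cells. Leaving out any 1 of the 4 libraries left 2 or 3 DEGs in Dax1KO cells, beside 13.7% to 16.9% of all genes: Cox4i2, Cox7b2 and Cox8c without 2i/LIF replicate 1, Atp5j, Cox6a2 and Cox7b2 without 2i/LIF replicate 2, Cox4i2 and Cox7b2 without LIF/serum replicate 1, and Cox7a2l, Cox7b2 and Ndufa12 without LIF/serum replicate 2.

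**Figure D4:**
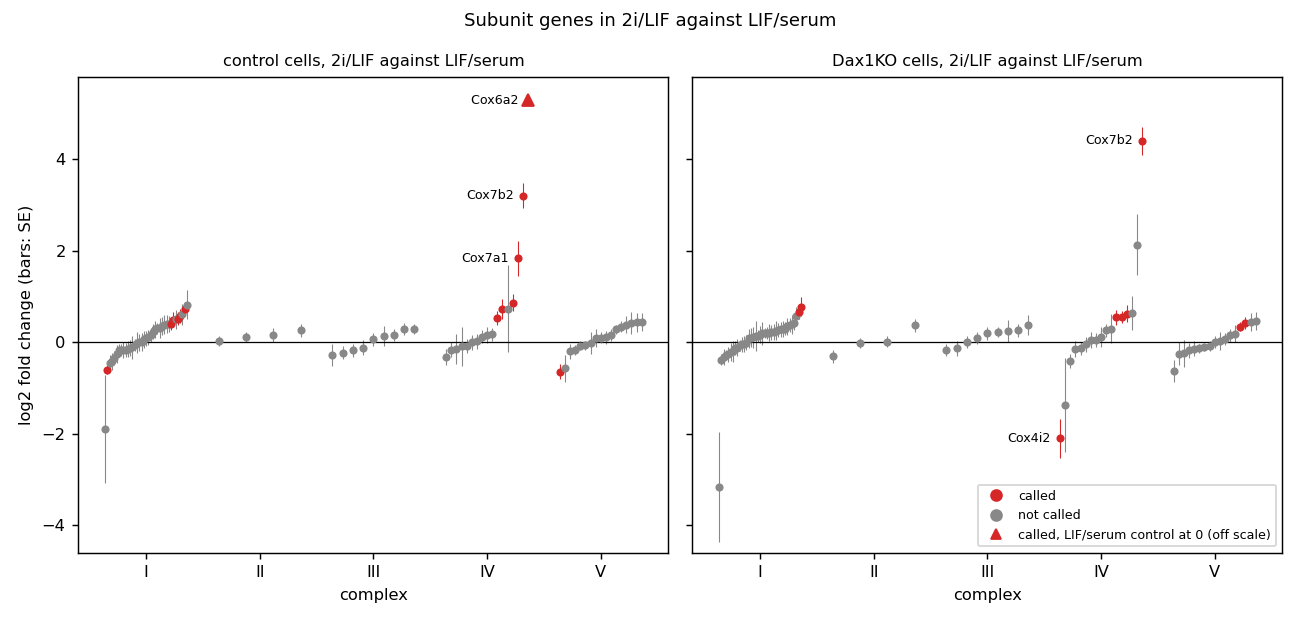
Log2 fold change of each tested subunit gene in 2i/LIF against LIF/serum (points, bars: SE) by complex, in control cells at left and Dax1KO cells at right, with DEGs in red. Cox7b2 stands at 3.21 and 4.40, Cox4i2 at -2.10 in Dax1KO cells, and 67 of 84 members in control and 71 in Dax1KO cells lie within 0.5 of 0.

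**Figure D5:**
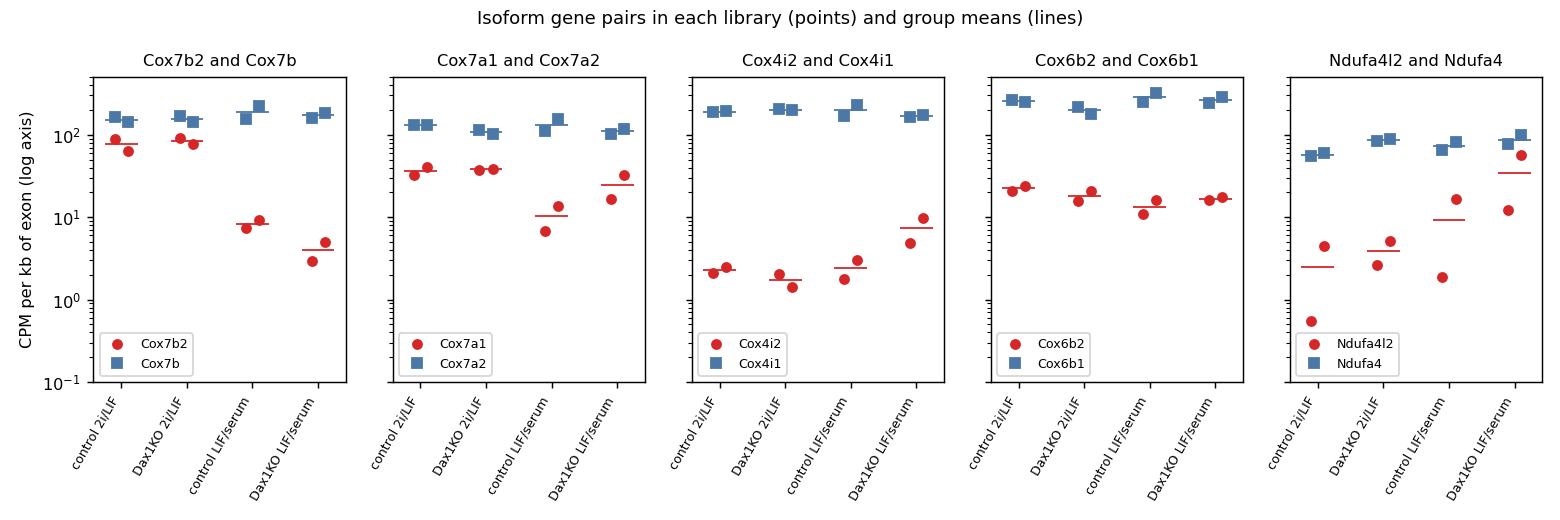
Level (CPM per kb of exon, log axis) in each library (points) with group means (lines) for 5 isoform genes in red and their ubiquitous partners in blue. Cox7b2 falls from 76.6 and 84.4 in 2i/LIF to 8.28 and 3.99 in LIF/serum, Cox4i2 reaches 7.36 in Dax1KO cells in LIF/serum, and the group means of the partners run from 57.5 (Ndufa4) to 287 (Cox6b1).

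The members were set beside 91 genes that build, connect or regulate the complexes (assembly factors of each complex, cytochrome c and coenzyme Q synthesis, mitochondrial DNA transcription and maintenance, and nuclear regulators, with Ndufab1, a complex I subunit that the symbol rule leaves out), of which 89 were tested. In 2i/LIF none was a DEG of Dax1KO cells in edgeR, beside 3.16% of all genes, and 11 had an unadjusted P under 0.05, beside 17.9% of all genes. DESeq2 called 5 of the 89 there, beside 7.01% of all genes. In LIF/serum 5 were upregulated and 2 downregulated, or 7.87% against 14.7% of all genes. The testis cytochrome c gene Cyct had 166 and 144 normalized counts in control and 325 and 438 in Dax1KO cells (1.30 ± 0.20, adjusted P 0.00798), and the somatic gene Cycs had 5807 and 5943 against 8111 and 10180 (0.64 ± 0.13, adjusted P 0.0192). Cycs lies on chromosome 6, and the chromosomes of the other genes in these lists are not given here. Also upregulated were Coq5 of coenzyme Q synthesis (0.49) and the assembly factors Sdhaf3 (1.00) and Foxred1 (0.81), and downregulated were Pdss1 (-0.55), which makes the isoprenoid tail of coenzyme Q, and Mterf4 (-0.57), a mitochondrial transcription termination factor family member. The difference of the Dax1KO effect between media was called for none in edgeR, beside 2.87% of all genes, with 9 at an unadjusted P under 0.05, beside 19.1%, and DESeq2 called 1, beside 7.28%. In LIF/serum DESeq2 called 8 upregulated and 5 downregulated, beside 19.3% of all genes. The edgeR count there fell from 7 to 3 without control replicate 1, control replicate 2 or Dax1KO replicate 1, each time upregulated, and to 0 without Dax1KO replicate 2. The shares of all genes in these fits are those given above for the members. Without control replicate 2 in LIF/serum the difference between media was called for 1 of these genes, beside 1.24% of all genes.

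Between media, 10 of these genes were higher and 15 lower in 2i/LIF in control cells, or 28.1% against 36.8% of all genes, and 7 were higher and 7 lower in Dax1KO cells, or 15.7% against 28.9%. The 25 of control cells became 17 and 9 without 2i/LIF replicates 1 and 2, beside 25.8% and 23.1% of all genes, and 17 and 19 without LIF/serum replicates 1 and 2, beside 29.0% and 27.7%. The 14 of Dax1KO cells became 5 without any 1 of the 4 libraries, beside 13.7% to 16.9%. Cyct had 961 and 1206 in 2i/LIF against 166 and 144 in LIF/serum in control cells (2.80 ± 0.21), and 1812 and 1627 against 325 and 438 in Dax1KO cells (2.17 ± 0.20). Among nuclear regulators Myc was lower in 2i/LIF in both (-4.86 and -4.26) and Ppargc1b, a coactivator of mitochondrial genes, was higher (1.21 and 1.52). Of 21 complex IV assembly factors 1 was higher and 4 were lower in control cells, with Sco2, a copper chaperone, at -0.77, and in Dax1KO cells Cox16 (0.61) was the 1 DEG. Of 16 complex I assembly factors 2 were higher and 3 lower in control cells, with Nubpl at 1.00 and Ecsit at -0.59, and 2 were higher and 3 lower in Dax1KO cells, with Ndufaf6 at 0.75 and Ecsit at -0.49. Sdhaf1 was lower in 2i/LIF in both genotypes (-0.84 and -1.29). Of 12 genes for mitochondrial DNA transcription and maintenance 3 were lower in control cells, Tfam (-0.34), Polrmt (-0.56) and Mterf4 (-0.69), and none was a DEG between media in Dax1KO cells. In 15 genes for cytochrome c and coenzyme Q, 5 were higher and 1 lower in control cells, with Coq3 at 0.99 and Pdss1 at -0.51. In Dax1KO cells 2 were higher, Cyct and Coq7 (0.54), and 2 lower, Coq8a (-1.11) and Coq9 (-0.48).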

How the data were processed

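Messenger RNA of 8 libraries, 2 for each cell line and medium, was sequenced on an Illumina HiSeq. The authors deposited raw counts, whole numbers per gene and library, and low counts pile up at 3 and 6. The submitters' processing notes name HISAT2 2.0.4, DESeq2 and mm10, and the counting tool and annotation are not given in the sources used here. Symbols, exons and lengths came from GENCODE M21 (GRCm38), where 52403 of 52550 gene identifiers were found. A further identifier with the symbol Atp5o was not used here.

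Counts were filtered with filterByExpr, scaled by TMM and fitted with edgeR 4.0.16 in R 4.3.3, with a mean for each group and Benjamini-Hochberg adjustment over 20749 genes. DEGs were those with adjusted P up to 0.05 and a change of 1.2 fold or more, and for the difference between media the adjusted P was used without a fold. Normalized counts were scaled to the mean TMM-adjusted library size, and levels are CPM per kilobase of the union of annotated exons. A standard error is the log2 fold change divided by the square root of F. Transcripts were compared with blastn 2.17.0 at 95% identity. Floors of 3 counts cover counting error only. The steps were tested on simulated data with changes planted in Dax1KO cells in LIF/serum. Of 66 genes given a log2 change of 0.585, 6.06% were called. The share was 31.3% of 67 genes at 1 and 89.6% of 67 at 2, and 6 of the 91 calls were false.

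The alternatives were DESeq2 1.42.0, RLE factors, total counts, no filter, at least 10 counts in each library, the replicate number as a block, separate fits, a fold of 2 or none, and each library left out. Chosen after seeing the data were an offset that removes the trend with exon length and a fit without chromosome 6. The genes named were the DEGs among the members (at most 6 per direction between media), the isoform genes with their partners, the highest and lowest member of each complex, all members on chromosome 6, Nr0b1, and at most 4 DEGs per pathway list and direction. Members, lists and motifs were chosen with earlier results of these data known.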

Additional observations from a re-analysis of the deposited data

How the results depend on the processing

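DESeq2 called 3 subunit genes in Dax1KO against control in 2i/LIF, where edgeR called 0, and 2 for the difference between media, where edgeR called 0. Separate fits for each comparison gave 1 in 2i/LIF, 0 against 5 in LIF/serum, 7 against 13 between media in control cells and 16 against 9 in Dax1KO cells. With no filter on low counts there was 1 in LIF/serum and 5 between media in Dax1KO cells. With the trend over exon length removed, chosen after seeing the data, there were 2 in 2i/LIF, 24 between media in control and 19 in Dax1KO cells, while the calls over all genes rose from 656 to 873, from 7641 to 8083 and from 5999 to 6393, and the median of the members in LIF/serum turned from -0.04 to 0.02. A fold of at least 2 left 3 in LIF/serum, and 3 and 2 between media in control and Dax1KO cells, beside 6.84%, 21.9% and 17.3% of all genes. The labels give replicate numbers only, and the numbers were not taken as pairs. With 2 libraries a group the deviations of same-numbered libraries from their group means correlated between -0.02 and 0.11 across 20749 genes. This does not show that same-numbered libraries are unrelated. In LIF/serum replicate 2 exceeded replicate 1 in 77 of 84 members in control and 72 in Dax1KO cells. With the replicate number as a block 1 member was called in 2i/LIF, 6 in LIF/serum, 0 for the difference between media, and 19 and 12 between media in control and Dax1KO cells, beside 2.76%, 15.5%, 2.66%, 37.4% and 29.3% of all genes. In LIF/serum the block lost Cox7b2 and gained Cox7a1 and Ndufa4l2.

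With each library left out in turn, the number called was 0 in 2i/LIF and for the difference between media, 0 to 9 in LIF/serum, 4 to 23 between media in control and 2 to 3 in Dax1KO cells. These fits called 0.174% to 0.758% of all genes in 2i/LIF and 0.165% to 1.57% for the difference, so the counts of 0 there say nothing about stability. Medians ran from -0.10 to -0.02 in 2i/LIF, from -0.20 to 0.16 in LIF/serum, from -0.18 to 0.20 for the difference, and from -0.054 to 0.30 and from -0.0033 to 0.21 between media in control and Dax1KO cells. In these fits the lone library of a group is assumed to vary like the other groups. Without Dax1KO replicate 1 in 2i/LIF, Cox8c rests on a library with 0 counts in that group. Without replicate 2 there, Cox6a2 rests on the library with 91 counts, where the one left out had 32. In LIF/serum Ndufa5 turned to 0.0048 with total counts, 0.023 with the length trend removed, 0.13 without control replicate 2 and 0.10 without Dax1KO replicate 1, and Ndufb2 turned to -0.10 without control replicate 1 and -0.06 without Dax1KO replicate 2. Over the single libraries left out Ndufa5 ran from -0.30 to 0.13 and Ndufb2 from -0.10 to 0.37. Of the single-gene results under the settings tried, 339 kept their direction and side of the threshold, 92 lost their call, 7 gained one and 6 turned. The cause of these changes was not tested.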
